A study of Mus musculus with 16 samples.

Results

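Otx2, Pou3f1, Zic2, Foxd3 and Sall2 are transcription factor genes of the formative and primed epiblast, and they were taken by name from a table of 14552 mouse genes. All 5 were in the table and all 5 passed the filter on low values, as 5 of 13355 genes tested. The mRNA of E14 cells, a line of mouse embryonic stem cells, was sequenced in 16 libraries, which fall into 8 groups of 2. In 6 of these groups, here called by time, the cells had received the auxin indole-3-acetic acid at 500 µM for 2, 4, 6 or 12 h or for 1 or 2 days. Cells of the withdrawal group had 2 days of auxin followed by 2 days without it, and the last group was untreated. Every group, the untreated one included, carried the Ddx10-AID and Tir1 alleles, so that auxin marks the RNA helicase DDX10 for degradation. Every group also grew on gelatin in serum medium with LIF and with CHIR99021 and PD0325901, inhibitors of GSK3 and MEK. Auxin-treated cells that lack the degron tag are not analysed here, and responses to the auxin and to the loss of DDX10 cannot be told apart. Degradation acts on the protein, so the level of the Ddx10 transcript would not check the labels.

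Embryonic stem cells in such medium are held near the naive state of the preimplantation epiblast. As epiblast cells leave that state they pass through a formative stage, in which they become able to respond to signals for germ layers and germ cells, and then reach a primed stage. OTX2 is a homeodomain factor that works with OCT4 at enhancers switched on in this transition, and POU3F1, also called OCT6, is a POU domain factor induced early in it. ZIC2 is a zinc finger factor found at enhancers of stem cells, FOXD3 is a forkhead factor that keeps pluripotent cells from differentiating and represses or primes enhancers, and SALL2 is a zinc finger factor of the spalt family.

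The 3 factors with an entry in the RefSeq promoter table (GRCm38.p6) are shown with their start-site sequences. A link between these sequences and the time courses given below was not tested. Each run covers 250 bases before to 50 bases after a start, 5′ to 3′ on the strand of the gene, and capitals mark matches to any of 8 motifs searched on both strands: the cAMP response element TGACGTCA, the E-box motif CACGTG, the GC box GGGCGG, the CCAAT box, the TATA box TATAAA, the homeodomain core TAATTA, the octamer ATGCAAAT and the TCF core CTTTGAT, none of which overlapped another in these windows. Where the table holds several starts, the one with the most CpG dinucleotides was chosen, which is the third of 4 for Otx2 and the second of 2 for Sall2.
Foxd3, chr4:99656049-99656348, plus strand: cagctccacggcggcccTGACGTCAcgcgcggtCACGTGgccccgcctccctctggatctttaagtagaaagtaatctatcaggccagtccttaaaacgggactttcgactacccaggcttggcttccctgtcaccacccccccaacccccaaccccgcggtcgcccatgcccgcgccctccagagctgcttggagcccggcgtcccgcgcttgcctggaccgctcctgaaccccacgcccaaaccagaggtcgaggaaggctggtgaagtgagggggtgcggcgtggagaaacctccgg
Otx2, chr14:48665060-48665359, minus strand: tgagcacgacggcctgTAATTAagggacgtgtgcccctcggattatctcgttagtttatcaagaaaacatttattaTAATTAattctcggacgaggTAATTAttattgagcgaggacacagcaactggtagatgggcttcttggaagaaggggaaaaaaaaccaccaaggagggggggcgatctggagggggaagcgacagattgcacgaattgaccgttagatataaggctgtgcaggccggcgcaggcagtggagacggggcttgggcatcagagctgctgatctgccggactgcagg
Sall2, chr14:52316274-52316573, minus strand: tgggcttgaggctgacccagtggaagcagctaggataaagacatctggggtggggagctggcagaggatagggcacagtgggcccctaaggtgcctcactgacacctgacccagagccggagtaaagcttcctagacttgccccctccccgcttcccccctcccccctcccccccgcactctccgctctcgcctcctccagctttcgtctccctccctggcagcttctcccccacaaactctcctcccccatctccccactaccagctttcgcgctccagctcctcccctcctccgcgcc

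The Foxd3 window held 25 CpG dinucleotides and 65.7% G and C, the Otx2 window 16 and 51.0%, and the Sall2 window 10 and 65.0%. The median was 7 CpG dinucleotides over 32851 promoter windows. It is no like comparison for Otx2 and Sall2, whose windows were chosen for their CpG dinucleotides. Their other starts held 6, 8 and 11 for Otx2 and 1 for Sall2. In the Foxd3 window a cAMP response element began 233 bases before the start and an E-box 217 bases before it, motifs that 1.79% and 7.15% of all windows hold. In the Otx2 window TAATTA began 234, 174 and 154 bases before the start, and 5.29% of all windows hold it. The printed Sall2 window held none of the 8 motifs, while the window of its other start held a CCAAT box and a TATA box. Of the Otx2 starts not printed, the first held a TATA box and TAATTA, the second a CCAAT box and the fourth none. These matches describe letters and not bound sites. Zic2 and Pou3f1 are named only.

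In GENCODE M21 on GRCm38, 3 of the genes lie on chromosome 14: Otx2 (ENSMUSG00000021848, chr14:48657677-48673819, minus strand), Sall2 (ENSMUSG00000049532, chr14:52311172-52328762, minus strand) and Zic2 (ENSMUSG00000061524, chr14:122475435-122479852, plus strand). Foxd3 (ENSMUSG00000067261, chr4:99656299-99658622, plus strand) and Pou3f1 (ENSMUSG00000090125, chr4:124656807-124660655, plus strand) lie on chromosome 4. Exons of Otx2 overlap Otx2os1 on the other strand, those of Pou3f1 overlap Gm2164 on the other strand, and exons of Otx2 and Foxd3 overlap Gm49154 and the miRNA gene Gm23366 on the same strand. Whether counting used strand is not given in the sources used here, so reads of Otx2 and Pou3f1 cannot be told apart from those of their antisense neighbours.

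Values are the authors' normalized counts, which are scaled by library but not by gene length. Library totals of these values were 14.9 to 16.9 M, with roughly 13.6 to 17.5 M reads in genes as read from the step between low values. All 7 stem cell markers were in the table, and their sum was 100318 to 103727 in untreated cells, 77487 to 88968 at 2 to 12 h, 96795 to 101245 at 1 and 2 days and 111640 to 113849 after withdrawal. The 7 did not move together. At 2 h the means of Dppa5a (11965 against 22437), Pou5f1 (17017 against 22755) and Sox2 (7735 against 9224) were below the untreated ones. Those of Nanog, Zfp42, Esrrb and Tdgf1 were above, Tdgf1 at 5452 against 4014. Of primitive endoderm markers 7 of 8 were in the table. Their sum, mostly the laminin gene Lama1, was 508 to 1293 in untreated cells and 1313 to 2187 at 2 to 12 h. It was 2147 to 2899 at 1 and 2 days and 1077 to 1166 after withdrawal. The endoderm factor Sox17 had 10.3 and 8.86 normalized counts at 1 day and 12.4 and 13.7 at 2 days. Its untreated libraries had 3.27 and 1.84, and it was at 0 in replicate 1 of 12 h and replicate 2 of withdrawal. Means of Gata6, Pdgfra and Dab2 were also above the untreated ones at 1 and 2 days. The Gata4 mean was above at 2 days only, and the Sox7 mean was below at both times. Sums over markers of trophectoderm (6 of 7 in the table), neural ectoderm (4 of 7), mesoderm and primitive streak (5 of 7), neural crest (3 of 5) and fibroblasts (4 of 5) were 1670 to 2527, 278 to 693, 61.4 to 147, 162 to 533 and 147 to 259.7 over all groups. In these bulk libraries fewer cells that express a gene and less RNA per cell cannot be told apart, and the part of other cell types in the results was not tested.

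The replicates of untreated cells and of 1 day stood further apart than the others. The SD over tested genes of the log2 difference between the 2 libraries was 0.62 in untreated cells and 0.53 at 1 day, against 0.37 to 0.41 in the other 6 groups. Untreated replicate 2 was above replicate 1 for Otx2, Zic2 and Sall2, by 0.76, 0.62 and 0.96 on the log2 scale, while its log2 difference was -0.51 for Foxd3 and -0.12 for Pou3f1. In the same pair 13 of 18 other formative or primed genes were higher in replicate 2, with a median log2 difference of 0.29. There 11 of 12 naive genes were lower, with a median of -0.43. Of all 13355 tested genes 6231 were higher and 7120 lower, with a median of -0.03. In the 1-day pair 13 of those 18 genes and 9 of those 12 were lower in replicate 2, beside 6695 of all tested genes. Nothing in the labels says that replicates were separate cultures, so p-values measure the spread between these libraries, which may be technical. Earlier results of these data also set the 8 libraries of 2 to 12 h apart from the rest, and the labels name no batch, so an early time and a batch of those libraries cannot be told apart against untreated cells.

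Per kilobase of exon, which allows genes to be compared, untreated cells had most Zic2 and Foxd3, at 332 and 309 normalized counts per kilobase. Otx2 followed at 86.3, Sall2 at 28.4 and Pou3f1 at 10.2. The factors named for the formative and primed stages were thus all detected before auxin, over a range of levels, and Pou3f1 was the scarcest.

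**Figure D1:**
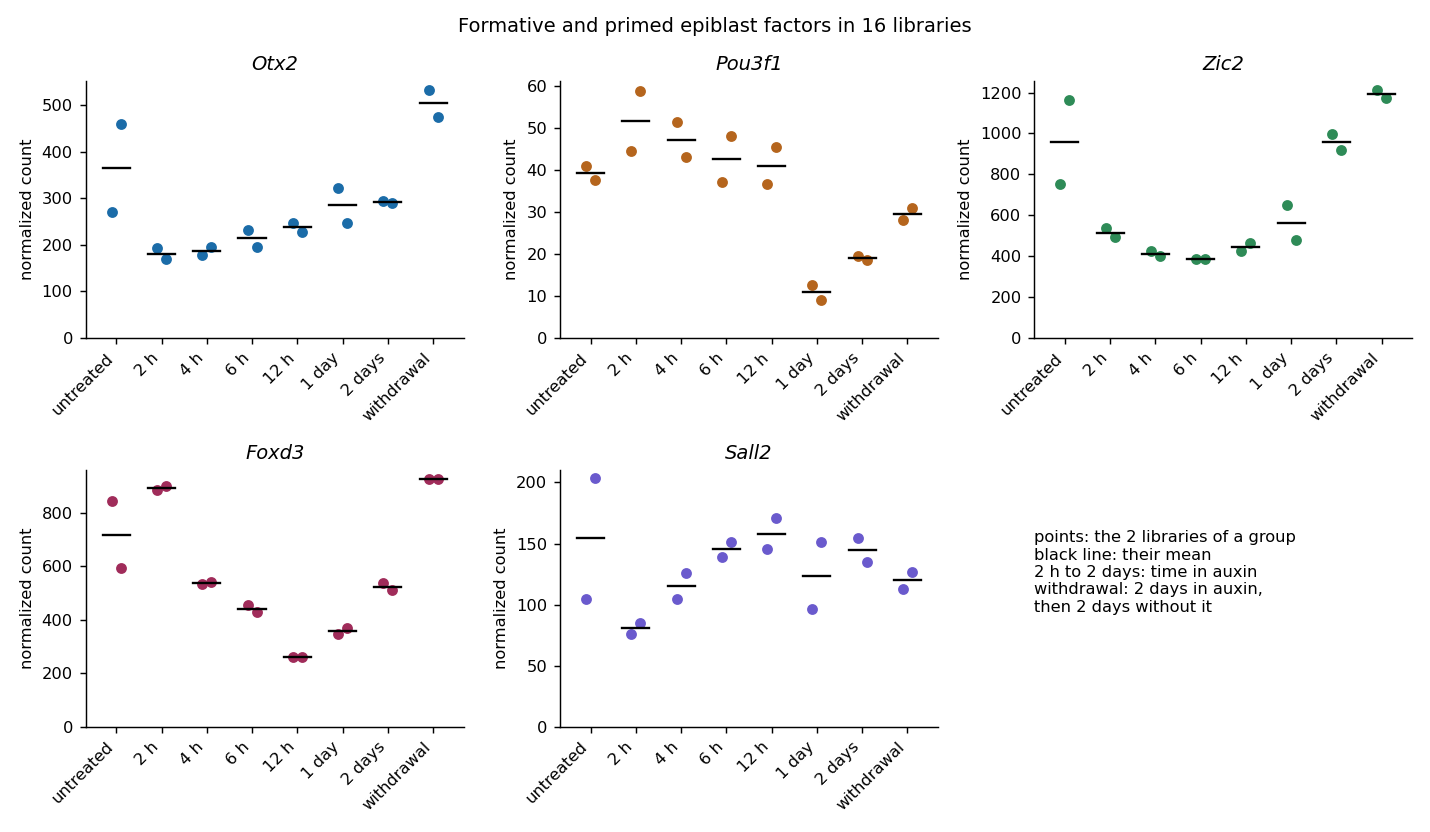
Normalized counts of the 5 genes in each of the 16 libraries, with 1 panel per gene, the untreated, auxin and withdrawal groups along the horizontal axis and normalized counts on the vertical axis. Points are libraries and lines are group means. Otx2 and Zic2 were lowest between 2 h and 6 h, Foxd3 at 12 h and Pou3f1 at 1 day.

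Otx2, the homeodomain factor, had its lowest mean at 2 h, and the means at later times lay nearer to the untreated one. Its normalized counts were 269.8 and 459 in untreated cells. Over the auxin times the libraries had 193 and 169 (2 h), 179 and 195 (4 h), 232 and 196 (6 h), 246 and 228 (12 h), 322 and 247 (1 day) and 294 and 289.6 (2 days). The withdrawal libraries had 533 and 474. All 8 libraries of 2 to 12 h, at 169 to 246, lay below the other 8, at 247 to 533. Of all tested genes 4.43% were lower in this way without overlap, and the split follows the set of libraries that stood apart. The highest of the early libraries and the lowest at 1 day almost touched. Otx2 thus had its lowest mean in the first samples taken.

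Zic2, the zinc finger factor, followed a similar course with a later minimum and was back at the untreated mean at 2 days. It had 754 and 1161 normalized counts in untreated cells. With auxin it had 537 and 491 (2 h), 423 and 402 (4 h), 385 and 388 (6 h), 424 and 462 (12 h), 648 and 479.9 (1 day) and 997 and 919 (2 days). The withdrawal libraries had 1215 and 1173. Every library of 2 h to 1 day lay below both untreated libraries, and the libraries of 2 days lay between them.

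Foxd3, the forkhead factor, was not low at 2 h, when Otx2 and Zic2 were. It had 842 and 593 normalized counts in untreated cells. In the auxin groups its values were 885 and 899 (2 h), 532 and 539.9 (4 h), 455 and 427 (6 h), 259 and 260.2 (12 h), 346 and 368 (1 day) and 536 and 509 (2 days). The withdrawal libraries had 924 and 927. Both libraries of 2 h lay above both untreated libraries, and from 4 h to 2 days every library lay below both. Its replicates were close in all groups except the untreated one.

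Pou3f1, the POU factor, was near its untreated level through 12 h and lower at 1 and 2 days. It had 40.9 and 37.6 normalized counts in untreated cells. Through the auxin series it had 44.5 and 58.6 (2 h), 51.3 and 43.0 (4 h), 37.1 and 48.0 (6 h), 36.6 and 45.3 (12 h), 12.7 and 9.04 (1 day) and 19.5 and 18.5 (2 days). The withdrawal libraries had 27.9 and 30.9. The 1-day libraries were below all others, the 2-day libraries came next, and the withdrawal libraries came above those and below both untreated ones.

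Sall2, the spalt family factor, had no such course. It had 104 and 204 normalized counts in untreated cells. Its values with auxin were 75.9 and 85.1 (2 h), 105 and 126 (4 h), 139 and 152 (6 h), 145 and 171 (12 h), 96.1 and 151 (1 day) and 155 and 135 (2 days). The withdrawal libraries had 113 and 127. Its untreated libraries spanned nearly all the other values, and 2 h was the 1 group with both libraries below both untreated ones.

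The order of the group means placed withdrawal highest for Otx2, Zic2 and Foxd3, 2 h highest for Pou3f1 and 12 h highest for Sall2. The lowest means were at 2 h for Otx2 and Sall2, at 6 h for Zic2, at 12 h for Foxd3 and at 1 day for Pou3f1. Neighbours in the order of Sall2 overlapped at every step except between 4 h and 2 h. In the order of Pou3f1 the values of untreated cells and of 2 to 12 h overlapped at each step. For Otx2, neighbours overlapped between untreated, 2 days and 1 day, between 12 h and 6 h, and between 4 h and 2 h.

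The comparisons with untreated cells ask when each gene first left its starting level. All tests were limma's moderated test on log2(normalized count + 1) over all 16 libraries, with p-values adjusted by the Benjamini-Hochberg method over 13355 genes and called under 0.05. A log2 change is on that scale, which understates changes of low genes such as Pou3f1.

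At 2 h Otx2 and Zic2 fell and none of the 5 rose, while 15.2% of all tested genes changed and 8.45% fell. Otx2 averaged 181 ± 17.1 normalized counts at 2 h and 364 ± 134 in untreated cells (SD, n = 2 each), a log2 change of -0.96 ± 0.21 (SE, limma adjusted p = 0.00858). Zic2 averaged 514 ± 32.4 at 2 h and 957 ± 288 in untreated cells, a log2 change of -0.86 ± 0.17 (limma adjusted p = 0.00532). Sall2 had a log2 change of -0.85 ± 0.28 that missed the threshold (limma adjusted p = 0.0547), Foxd3 one of 0.34 (limma adjusted p = 0.0980) and Pou3f1 one of 0.37 (limma adjusted p = 0.409). Both calls ended without replicate 2 of 2 h, where limma gave adjusted p = 0.0864 for Otx2 and 0.0619 for Zic2, and in a fit of the 4 libraries alone, where it gave 0.108 and 0.0837. Without untreated replicate 1, Foxd3 and Sall2 passed as well, at log2 changes of 0.59 and -1.33 (limma adjusted p = 0.00304 and 0.00531), and without untreated replicate 2 the changes were -0.58 for Otx2 and -0.55 for Zic2 (limma adjusted p = 0.0478 and 0.0264).

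At 4 h and 6 h Otx2, Zic2 and Foxd3 fell. Of all tested genes 19.1% changed at 4 h, with 10.2% lower, and 24.4% changed at 6 h, with 13.4% lower. Zic2 had the largest fall of the 3, with 413 ± 14.9 normalized counts at 4 h, 386 ± 2.24 at 6 h and 957 ± 288 in untreated cells (SD, n = 2 each), log2 changes of -1.18 and -1.27 (limma adjusted p = 0.000563 and 0.000184). These 2 calls held in every alternative that was run. Foxd3 averaged 441 ± 19.4 at 6 h and 717 ± 176 in untreated cells, a log2 change of -0.68 ± 0.13 (limma adjusted p = 0.00225), and at 4 h its change of -0.40 only just passed (limma adjusted p = 0.0478). Otx2 had log2 changes of -0.91 at 4 h and -0.72 at 6 h (limma adjusted p = 0.00926 and 0.0235). Foxd3 at 4 h lost its call in 8 alternatives, among them without untreated replicate 1 (log2 change -0.14, limma adjusted p = 0.368; -0.65 without untreated replicate 2) and without either library of 4 h, and at 6 h it was at -0.43 without untreated replicate 1 and lost its call in the fit of 4 libraries alone (limma adjusted p = 0.0653). Otx2 lost its calls in fits of 4 libraries alone (limma adjusted p = 0.0914 and 0.137), without untreated replicate 2, at log2 changes of -0.53 at 4 h and -0.34 at 6 h (limma adjusted p = 0.0601 and 0.205), without replicate 1 of 4 h (limma adjusted p = 0.0738) and without either library of 6 h (limma adjusted p = 0.0540 and 0.156), and at 6 h it was at -1.10 without untreated replicate 1.

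At 12 h Foxd3 reached its minimum and Zic2 stayed low, 2 genes among the 33.1% of tested genes that changed and the 18.3% that fell. Foxd3 averaged 259.6 ± 0.756 normalized counts at 12 h and 717 ± 176 in untreated cells, a log2 change of -1.44 ± 0.13 (limma adjusted p = 3.4e-06). Zic2 averaged 443 ± 26.9 at 12 h and 957 ± 288 in untreated cells, a log2 change of -1.08 (limma adjusted p = 0.000318). Both calls held in every alternative. Otx2, at -0.57, missed the threshold (limma adjusted p = 0.0507) and passed without untreated replicate 1, at -0.95 (limma adjusted p = 0.00188).

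At 1 day Pou3f1, Zic2 and Foxd3 fell, the first call for the POU factor, with 33.6% of tested genes changed and 17.7% lower. Pou3f1 averaged 10.8 ± 2.56 normalized counts at 1 day and 39.2 ± 2.37 in untreated cells, a log2 change of -1.78 ± 0.29 (limma adjusted p = 0.000369). Foxd3 had a log2 change of -0.98 (limma adjusted p = 6.9e-05), called in every alternative, and Zic2 one of -0.75 (limma adjusted p = 0.00434). Pou3f1 and Zic2 lost their calls only in the fit of 4 libraries alone (limma adjusted p = 0.0614 and 0.0998), and without untreated replicate 2 the Zic2 change was -0.43 (limma adjusted p = 0.0499). Without untreated replicate 1, Otx2 and Sall2 were also lower, at -0.70 and -0.75 (limma adjusted p = 0.00993 and 0.0377).

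At 2 days Pou3f1 and Foxd3 remained lower and the other 3 were not called, while 44.8% of tested genes had changed and 23.8% had fallen. Pou3f1 averaged 19.0 ± 0.739 normalized counts at 2 days and 39.2 ± 2.37 in untreated cells, a log2 change of -1.01 (limma adjusted p = 0.0119), and Foxd3 averaged 523 ± 19.3 at 2 days and 717 ± 176 in untreated cells, a log2 change of -0.43 (limma adjusted p = 0.0149). Zic2 had a log2 change of 0.03, with a 95% interval of -0.34 to 0.40, and Otx2 one of -0.27, with an interval of -0.72 to 0.18. Each call ended in 4 alternatives, among them a fit without the libraries of 2 to 12 h (limma adjusted p = 0.0587 for Pou3f1 and 0.0717 for Foxd3) and without replicate 2 of 2 days (limma adjusted p = 0.0592 and 0.0856). Foxd3 also ended without untreated replicate 1 (log2 change -0.18, limma adjusted p = 0.173; -0.69 without untreated replicate 2), and without untreated replicate 1 Otx2 was called lower at -0.65 (limma adjusted p = 0.0113).

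**Figure D2:**
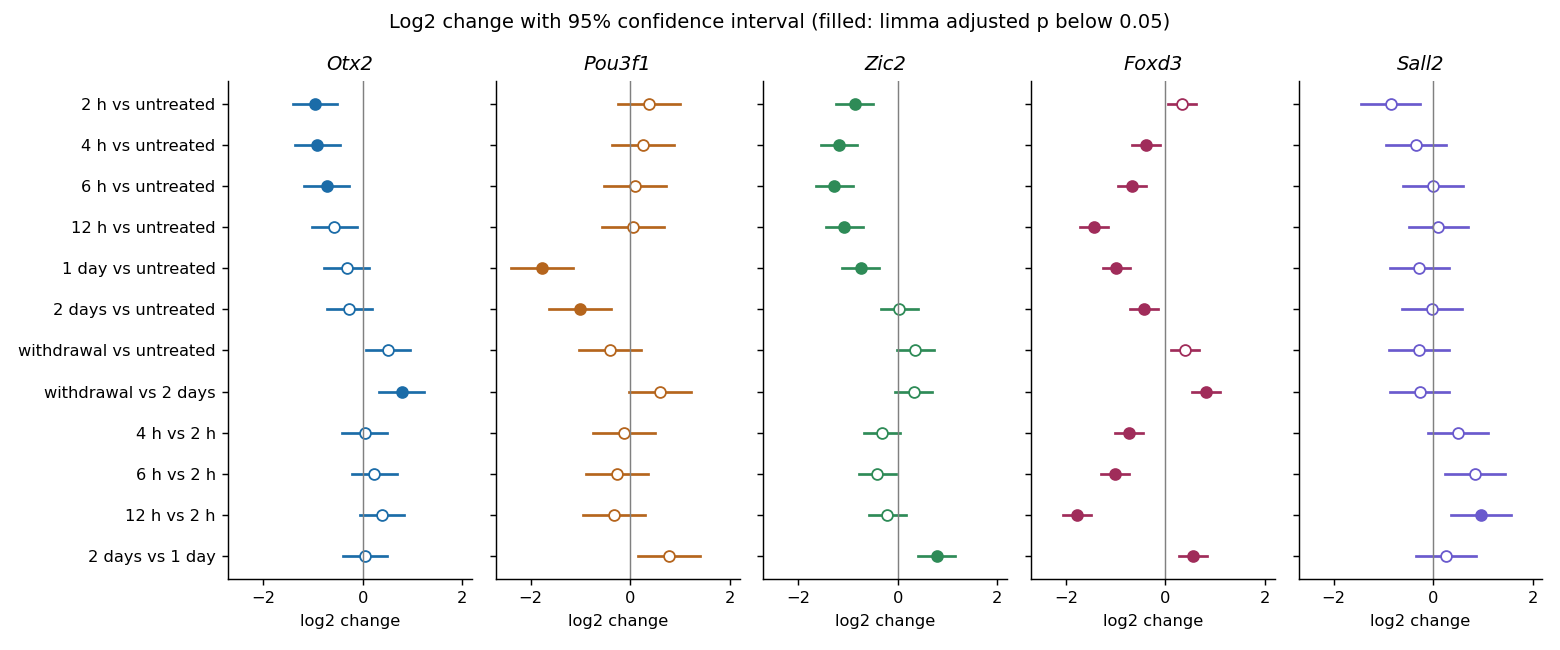
Log2 changes on the horizontal axis for each of the 5 genes, with 1 panel per gene and 1 row for each of 12 comparisons. Bars are 95% intervals of the limma fit and filled points are called. The Foxd3 change was -1.44 at 12 h and 0.82 after withdrawal against 2 days, and the Pou3f1 change was -1.78 at 1 day.

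The early libraries were also compared with 2 h, since untreated cells do not enter these differences. They do enter the spread that the tests share. Foxd3 was lower than at 2 h at each later early time, by log2 changes of -0.73 at 4 h, -1.02 at 6 h and -1.78 at 12 h (limma adjusted p = 0.00780, 0.000326 and 1.1e-06). It was the 1 gene of the 5 called at 4 h and at 6 h, where 2.45% and 7.8% of tested genes changed and 0.681% and 3.35% fell. Sall2 averaged 158 ± 18.2 normalized counts at 12 h and 80.5 ± 6.53 at 2 h, a log2 change of 0.96 (limma adjusted p = 0.0228), with 24.6% of tested genes changed at 12 h, 10.9% higher and 13.7% lower. Zic2 had log2 changes of -0.32, -0.41 and -0.21 at 4, 6 and 12 h, none called. Its change at 6 h passed with library weights and in the fit of 4 libraries alone (limma adjusted p = 0.0116 and 0.0216). Sall2 at 6 h had a log2 change of 0.85 that was not called (limma adjusted p = 0.0865). It too passed in those 2 fits (limma adjusted p = 0.00413 and 0.0137). Otx2 at 12 h, at 0.39, passed with library weights alone (limma adjusted p = 0.0402). The Foxd3 calls at 6 h and 12 h held in every alternative. The Foxd3 call at 4 h and the Sall2 call ended when any of their 4 libraries was left out, with limma adjusted p of 0.0674 to 0.0831 for Foxd3 and 0.0611 to 0.140 for Sall2.

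From 1 to 2 days of auxin Zic2 and Foxd3 rose again, with 5.65% of tested genes changed and 1.57% higher. Zic2 averaged 958 ± 55.4 normalized counts at 2 days and 564 ± 119 at 1 day, a log2 change of 0.78 (limma adjusted p = 0.0185). Foxd3 averaged 523 ± 19.3 at 2 days and 357 ± 15.4 at 1 day, a log2 change of 0.55 (limma adjusted p = 0.0254). Both calls ended without the libraries of 2 to 12 h (limma adjusted p = 0.160 and 0.192), without either library of 2 days, and, for Zic2, without replicate 2 of 1 day (log2 change 0.56, limma adjusted p = 0.0903). Foxd3 ended without replicate 1 of 1 day (limma adjusted p = 0.0570).

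After 2 days without auxin Otx2 and Foxd3 were higher than at 2 days of auxin, with 41.3% of tested genes changed and 22.2% higher. Foxd3 averaged 926 ± 2.09 normalized counts after withdrawal and 523 ± 19.3 at 2 days, a log2 change of 0.82 ± 0.13 (limma adjusted p = 0.000215), called in every alternative. Otx2 averaged 503 ± 42.1 after withdrawal and 292 ± 2.96 at 2 days, a log2 change of 0.78 ± 0.21 (limma adjusted p = 0.00872), which ended without withdrawal replicate 1 (0.70, limma adjusted p = 0.0662). Pou3f1 averaged 29.4 ± 2.06 after withdrawal and 19.0 ± 0.739 at 2 days, and its log2 change of 0.60 was not called (limma adjusted p = 0.112), though it passed at 0.88 once trends with gene length and GC content were removed (limma adjusted p = 0.0207). Zic2 and Sall2 had log2 changes of 0.32 and -0.27, not called, though Zic2 passed with library weights (limma adjusted p = 0.0255) and in the fit of 4 libraries alone (limma adjusted p = 0.0102).

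Against untreated cells, 0 of the 5 genes were called after withdrawal by limma, where 2.79% of tested genes changed. At an unadjusted p under 0.05 there were 2, Foxd3 and Otx2, with limma p of 0.0101 and 0.0283, beside 17.3% of tested genes at that threshold. Foxd3 and Otx2 had log2 changes of 0.39 and 0.51, Zic2 one of 0.35, Sall2 one of -0.28 and Pou3f1 one of -0.40 with a 95% interval of -1.03 to 0.22. Both withdrawal libraries lay above both untreated ones for Otx2, Zic2 and Foxd3, and below both for Pou3f1. The share of all tested genes that separate in this way was not computed. With so few libraries such a split describes them and is no test. Leaving out untreated replicate 1 gave a Foxd3 call at 0.64 (limma adjusted p = 0.00224), and leaving out replicate 2 gave calls for Otx2 at 0.90 and Zic2 at 0.66 (limma adjusted p = 0.0230 and 0.0362).

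Among relatives of the 5 genes, Zic5, a further ZIC factor, was called lower at 1 day alone (log2 change -1.26, limma adjusted p = 0.0254). Its 1-day libraries held 465 and 126 normalized counts, against 501 and 674 in untreated cells. The fall was not confined to that time. Every Zic5 library from 4 to 12 h or from 2 days lay within 314 to 409, under both untreated ones. Log2 changes of these groups ran from -0.73 to -0.54, none called. The higher 1-day library exceeded all of these libraries, and the lower was beneath them. How far the 1-day call depends on either library was not tested.

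Pou3f3, a POU factor of the nervous system and kidney, passed the filter on low values through the groups in which it was high, so its values are given without a test. It had 14.7 and 15.7 normalized counts at 6 h, 25.7 and 15.7 at 2 days, 1.12 and 6.37 after withdrawal and 3.71 and 2.03 in untreated cells. Sall1 and Sall3, spalt factors related to Sall2, were lower at 1 day (-0.65 and -0.68) and at 2 days (-0.36 and -0.73), and both rose after withdrawal relative to 2 days, by 0.34 and 0.40. Sall3 was also lower at 12 h, with a log2 change of -0.36 (limma adjusted p = 0.0321). Sall4, a spalt factor of pluripotent cells, was called lower at 12 h alone of the comparisons with untreated cells, with a log2 change of -0.32 (limma adjusted p = 0.0285). Otx1, Pou3f2 and Foxd1 were in the table under the mean of 10 that the test required. Crx, Pou3f4, Zic1, Zic4, Foxd2 and Foxd4 were not analysed here.

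**Figure D3:**
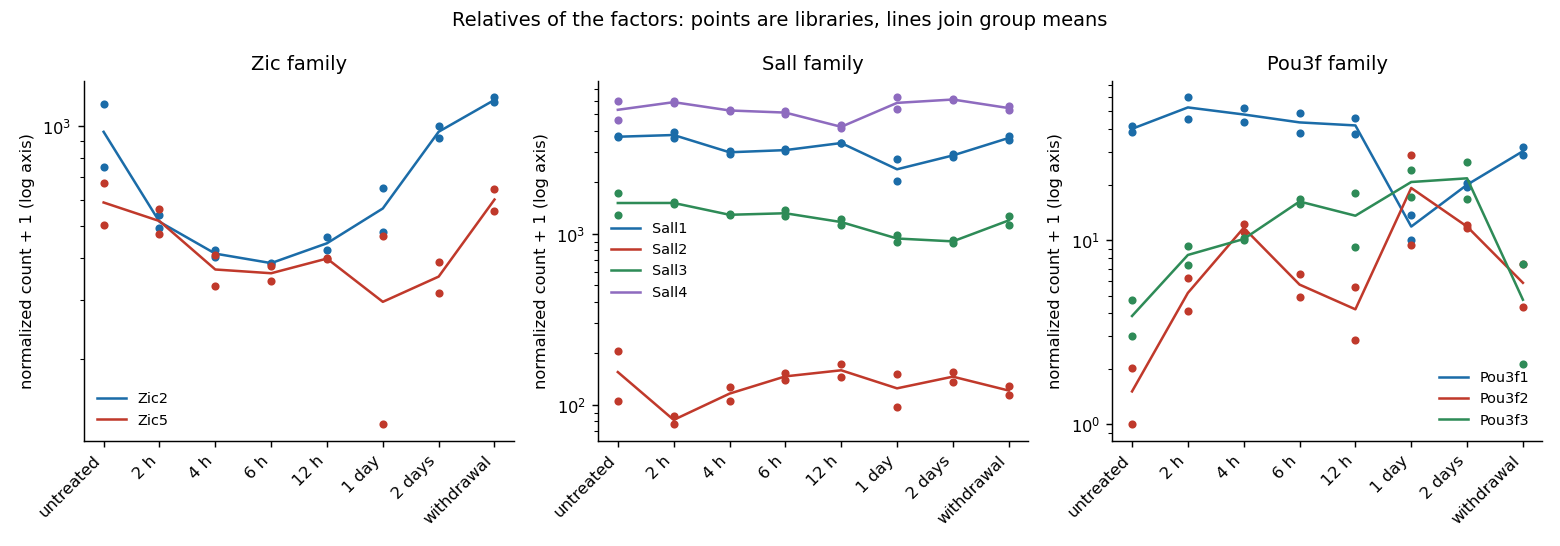
Zic, Sall and Pou3f family genes in the 8 groups (horizontal axis), as normalized count + 1 on a log axis, with points for libraries and lines joining group means. At 1 day the Zic5 libraries lay at 465 and 126, the Zic2 libraries at 648 and 479.9 and the Pou3f3 libraries at 23.1 and 16.2.

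Of 20 other formative or primed genes, 18 were tested, and Fgf5 and Fgf8 were not analysed here. The list was written with earlier results of these data known, so its direction is no independent evidence. Against untreated cells 4 of the 18 fell at 2 h, 5 at 4 h, 7 at 6 h, 9 at 12 h, 11 at 1 day and 10 at 2 days. Of all tested genes 8.45%, 10.2%, 13.4%, 18.3%, 17.7% and 23.8% fell at the same times. Rbpj rose at 2 h (0.27), Tead2 at 12 h (0.48), and Cdh2 (N-cadherin, 1.41) and Tcf7l1 (a WNT pathway repressor, 0.32) at 2 days, which were all the rises of this list and are named with their values already known. The median log2 change of the 18 was -0.07 at 2 h, -0.56 at 12 h, -0.78 at 1 day and -0.73 at 2 days, while the median over all tested genes was -0.01 at 2 days. After withdrawal 8 rose relative to 2 days, beside 22.2% of all tested genes, and Cdh2 fell by 0.88. Against untreated cells limma called 0 of the 18 after withdrawal, beside 2.79% of all tested genes, and 9 had an unadjusted p under 0.05, beside 17.3%.

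Etv4, an ETS factor induced by FGF and ERK signalling, had 156 and 144 normalized counts at 2 days against 2428 and 1685 in untreated cells, a log2 change of -3.75 (limma adjusted p = 4.6e-09). Tcf15, a basic helix-loop-helix factor of cells about to leave the naive state, had 55.0 and 49.1 at 2 days against 228 and 353 in untreated cells, a log2 change of -2.42. Utf1, a chromatin factor of pluripotent cells, and Dnmt3b, a de novo DNA methyltransferase, had log2 changes of -1.13 and -1.07. Etv4, Utf1, Dnmt3b and Tcf15 rose after withdrawal relative to 2 days, by 3.19, 1.26, 0.97 and 1.93 on the log2 scale, the fourth named outside the rule of 3.

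The 12 naive genes moved in both directions. At 4 h Tfcp2l1, a factor downstream of LIF and WNT signals, rose by 0.67 and 6 others fell. Its libraries had 18388 and 18297 normalized counts at 4 h, against 14480 and 9199 in untreated cells. At 12 h Tfcp2l1 and Klf4 rose and Klf5, Zfp42, Nr0b1 and Tcl1 fell, the largest fall being that of Nr0b1 (log2 change -1.93). At 2 days 7 rose and 3 fell (Zfp42, Nr0b1 and Tcl1), with a median log2 change of 0.22. Of all tested genes 8.86% rose and 10.2% fell at 4 h, 14.8% rose and 18.3% fell at 12 h, and 21% rose and 23.8% fell at 2 days. Klf4, a naive Krüppel-like factor, had a log2 change of 1.09 at 2 days, while Nr0b1, an orphan nuclear receptor, and Zfp42, the REX1 gene, had log2 changes of -0.54 and -0.40 (limma adjusted p at most 0.000301 for the 3). The Klf4 libraries had 5377 and 5464 normalized counts at 2 days, against 3380 and 1915 in untreated cells. How far changes of the listed genes depend on either untreated library was not tested. The primitive endoderm marker sum was 2007 to 2187 over 2 to 6 h and 1313 to 1374 at 12 h. At 2 days it was 2643 to 2899, against 508 to 1293 in untreated cells. Other marker sums were also higher at 2 days than in untreated cells. Trophectoderm had 2451 to 2527 against 1767 to 1821, and neural ectoderm 679 to 685 against 278 to 453. Mesoderm and primitive streak had 135 to 147 against 70.5 to 108, and neural crest 343 to 376 against 162 to 304. Sums of fibroblast and stem cell markers overlapped with the untreated ones. The part of these sums in the changes of the lists was not tested.

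**Figure D4:**
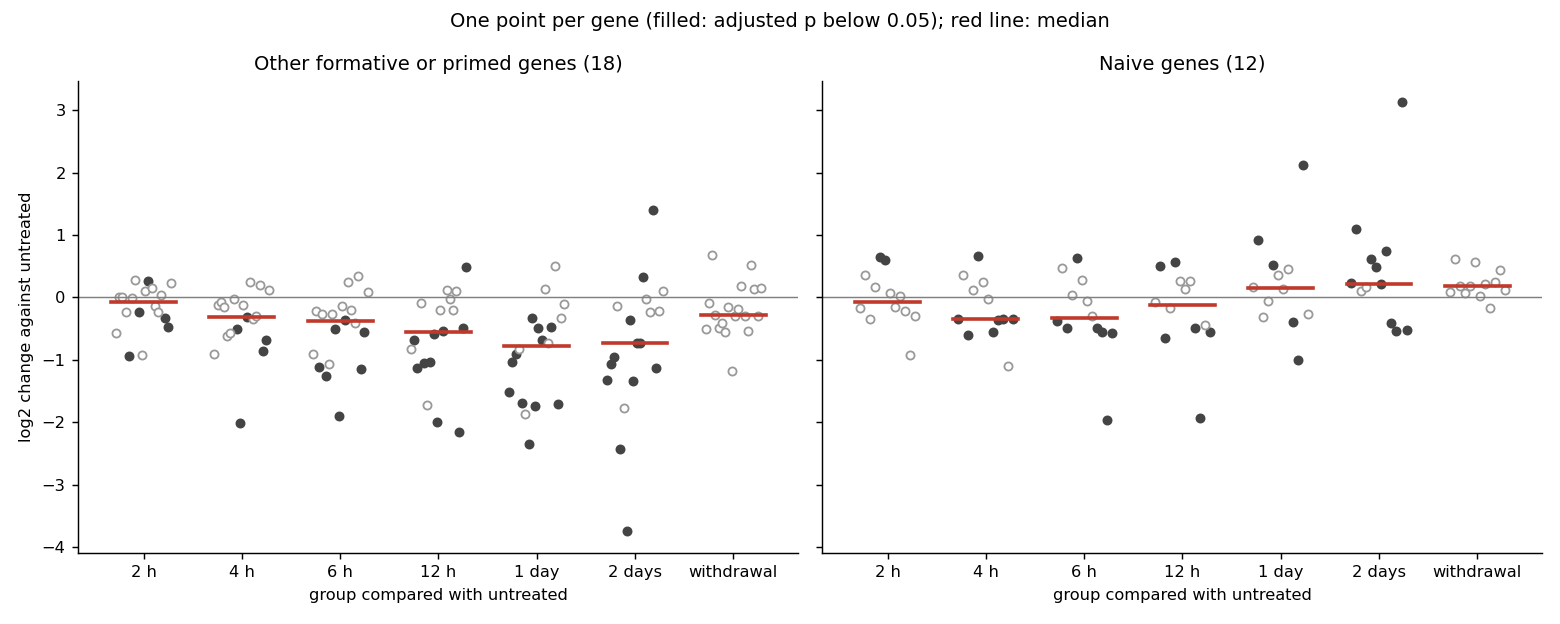
Log2 changes of the 18 other formative or primed genes and the 12 naive genes (vertical axis) in the 7 comparisons with untreated cells (horizontal axis), with points for genes, filled where called, and a red line for the median of each list. The median of the formative or primed genes was -0.73 at 2 days and that of the naive genes 0.22.

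The genes most like each of the 5 were found by Pearson correlation of log2(normalized count + 1) over the 16 libraries, among tested genes with a mean of at least 50 and a symbol other than a predicted-gene name. The libraries share a time course and a set of early libraries that stood apart, so these values are descriptions. Foxd3 was most like Utf1 (r = 0.95), the chromatin factor named above, followed by Smarcb1, a SWI/SNF subunit, and Nr0b1 (both 0.92). Utf1 averaged 1066 at 12 h, 2169 at 2 days, 5196 after withdrawal and 4752 in untreated cells, and so had its lowest mean at 12 h as Foxd3 did. Utf1 and Nr0b1 were also on the lists above, and Smarcb1 was on neither.

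Otx2 was most like Pank2, a pantothenate kinase (0.94), Mdfic (0.94) and Capn3, a calpain protease (0.92). Zic2 was most like Slc25a33, a mitochondrial carrier (0.93), Acyp1, an acylphosphatase (0.93), and Stc2, a secreted stanniocalcin (0.90). Stc2 averaged 15.8 at 12 h and 161 after withdrawal. Pou3f1 was most like Mtmr4, a lipid phosphatase (0.94), Srebf2, the regulator of cholesterol synthesis genes (0.94), and Gnptab, an enzyme of lysosomal sorting (0.93). Srebf2 averaged 3438 at 1 day, 4112 at 2 days and 4970 in untreated cells, with its lowest mean at 1 day as Pou3f1 had. Sall2 was most like Lzts2 (0.91), Cacnb3, a calcium channel subunit (0.84), and Dos (0.83). None of the 5 was among the 3 genes most like another.

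**Figure D5:**
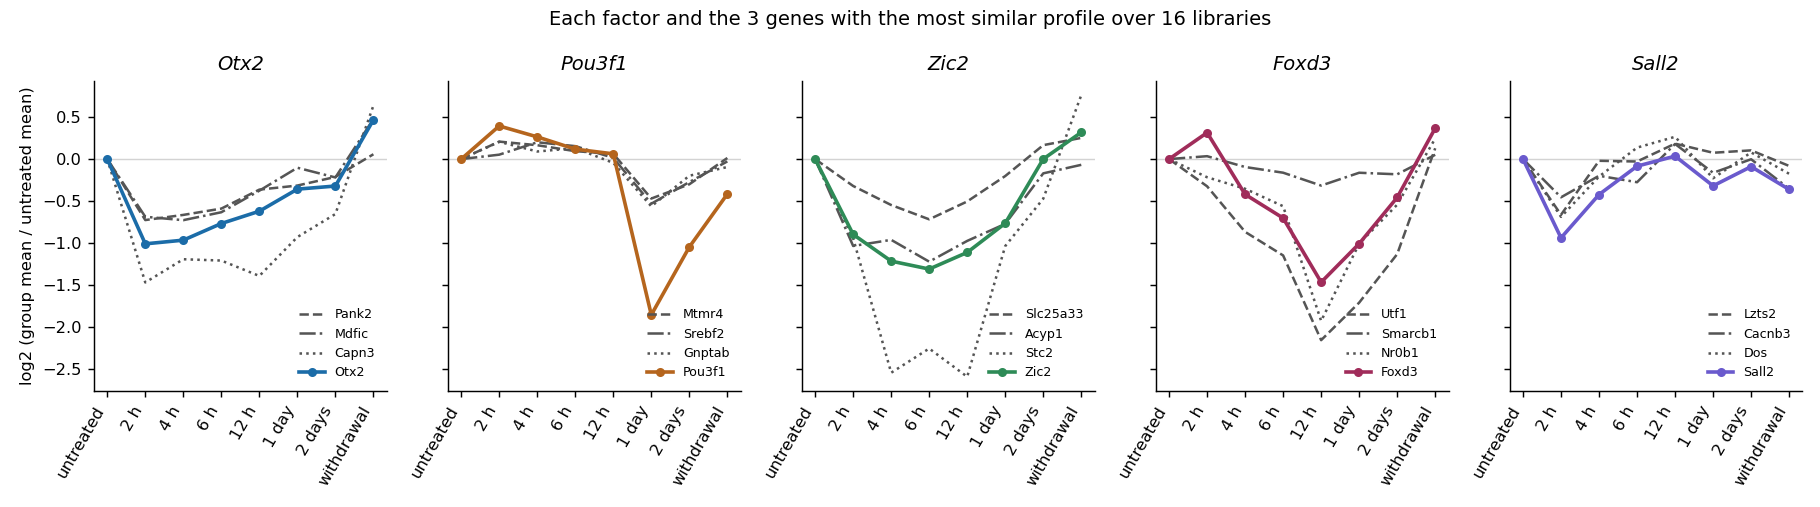
Log2 ratio of each group's mean to the untreated mean (vertical axis) in the 8 groups (horizontal axis), for each of the 5 genes (coloured line) and the 3 genes most like it (grey lines). Utf1 and Nr0b1 share the lowest mean of Foxd3 at 12 h, and Srebf2 shares that of Pou3f1 at 1 day.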

How the data were processed

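mRNA libraries of 16 samples were sequenced, 2 in each of 8 groups. The deposited values are normalized counts per gene, used here as a signal. The authors made them with Trim Galore, STAR, RSEM and DESeq2 on mm10, per the submitters' processing notes; for versions, annotation and strand setting the entry is: not given in the sources used here. Low values were whole multiples of 1 step within 0.1 in 72.5% to 99.1% of cases for genes with 1 transcript and in 36.0% to 45.1% for others, so whole reads were not recovered and no count model was used.

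Genes were taken by symbol. Values entered as log2(value + 1), and 13355 of 14552 genes with a mean of at least 10 were fitted with limma 3.58.1 (R 4.3.3, intensity trend, 1 mean per group, 8 residual degrees of freedom, median SE of a log2 change 0.158). P-values were adjusted over all tested genes. The fit was tested on simulated data. The comparison of 2 days with 1 day was added after the data were seen. Named genes were the 5 factors, their relatives (not all are reported here), up to 4 formative or primed genes (3 outside 2 days against untreated) and up to 3 naive genes with the smallest p, and for likeness the 3 most correlated genes. The factors, lists and tests were chosen with earlier results of these data known. Positions are from GENCODE M21, in which 14467 gene identifiers were found and 85 were not. Replicates of a group differed by more than counting noise (chi-square per degree of freedom 4.74 to 26.0). Same-numbered replicates did not deviate together, so numbers were not used as pairs. Alternatives were other pseudocounts, filters and scalings, a replicate block, library weights, removal of length and GC trends, fewer libraries and leaving out each replicate.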

Additional observations from a re-analysis of the deposited data

How the results depend on the processing

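Of 60 log2 changes of the 5 genes, 23 were called, and 8 of those calls passed under every alternative: Zic2 at 4, 6 and 12 h and Foxd3 at 12 h, 1 day, 6 h against 2 h, 12 h against 2 h and withdrawal against 2 days. 0 called values changed sign. Fits of the 4 libraries compared moved the number of the 5 genes called. It fell from 2 to 0 at 2 h and from 3 to 1 at 4 h, 6 h and 1 day. It also fell from 2 to 0 at 2 days and at 2 days against 1 day. It rose from 1 to 3 at 6 h against 2 h and from 2 to 3 after withdrawal against 2 days. These fits have fewer samples and take the spread from the libraries compared alone, and the part of either was not tested. With library weights the number called was 1 at 2 days, 1 at 2 days against 1 day and 3 at 6 h against 2 h. Without the libraries of 2 to 12 h it was 0 at 2 days and 0 at 2 days against 1 day. With a minimum mean of 50, which removes Pou3f1 from the test, it was 1 at 2 days. Where not stated otherwise the cause was not tested.

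Leaving out each library in turn gave counts of 0 to 4 at 2 h, 1 to 3 at 4 h, 3 to 5 at 1 day, 0 to 2 at 2 days, 0 to 2 after withdrawal against untreated, 1 to 2 after withdrawal against 2 days, 0 to 0 at 4 h against 2 h, 1 to 1 at 12 h against 2 h and 0 to 1 at 2 days against 1 day. Uncalled log2 changes that reversed were Sall2 at 6 h and 2 days with upper quartile scaling (0.0419 and 0.0436), and, with length and GC trends removed, Pou3f1 at 6 h and 12 h (-0.0868 and -0.15), Sall2 at 12 h (-0.0870) and Zic2 at 2 days (-0.0986). Leaving out each library, uncalled log2 changes of Sall2 that reversed ran from -0.37 to 0.59 at 12 h, -0.83 to 0.13 at 4 h, -0.49 to 0.47 at 6 h, -0.75 to 0.21 at 1 day, -0.49 to 0.47 at 2 days, -0.76 to 0.20 after withdrawal against untreated, -0.0638 to 0.58 at 2 days against 1 day. Leaving out each library, uncalled log2 changes of Zic2 that reversed ran from -0.28 to 0.34 at 2 days. Leaving out each library, uncalled log2 changes of Pou3f1 that reversed ran from -0.0943 to 0.20 at 12 h, -0.31 to 0.0748 at 4 h against 2 h, -0.0758 to 0.29 at 6 h. Leaving out each library, uncalled log2 changes of Otx2 that reversed ran from -0.70 to 0.0629 at 1 day, -0.65 to 0.11 at 2 days, -0.0508 to 0.14 at 4 h against 2 h, -0.14 to 0.24 at 2 days against 1 day.

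Over all genes the calls, with the range over all alternatives, numbered 2030 (408 to 2267) at 2 h, 2548 (731 to 2613) at 4 h, 3253 (1411 to 3341) at 6 h, 4422 (2831 to 4607) at 12 h, 4484 (1219 to 5119) at 1 day, 373 (1 to 1106) after withdrawal against untreated, 327 (97 to 1120) at 4 h against 2 h, 1042 (340 to 2726) at 6 h against 2 h, 3280 (1773 to 5117) at 12 h against 2 h, 754 (0 to 1526) at 2 days against 1 day. No scaling moved the median of all genes by over 0.1 on the log2 scale. Pairing by replicate number was checked over 28 pairs of groups, with correlations of deviations of -0.06 to 0.07 and none over 0.1. With the replicate block 3 of the 5 genes were called at 2 h, Sall2 included (limma adjusted p = 0.0328), and 2 at 4 h, without Foxd3 (limma adjusted p = 0.0519), and no other call of the 5 genes changed. Over all genes the block gave 1888 calls at 2 h and 5919 at 2 days. With 2 libraries a group and a median SE of 0.158, small log2 changes were not detectable.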
